A study of Homo sapiens with 4 samples.

Results

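The aminoacyl-tRNA synthetase genes are a set of 38 genes, taken by symbol from a named list out of 18398 transcripts measured in each library. They comprise 20 genes for cytosolic enzymes, 16 genes for mitochondrial enzymes, whose symbols end in 2, and the scaffold genes AIMP1 and AIMP2. All 38 were measured, and all passed the filter on low values used for testing, so none was lost to it. No expression value was used to choose them.

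Huh1 and Huh7 are established human hepatocellular carcinoma cell lines. RNA was sequenced 48 h after transfection of each line with 15 nM of CDCA8siRNA, which targets the chromosomal passenger complex gene CDCA8, or of NCsiRNA, the negative control. The groups were Huh1 with NCsiRNA, Huh1 with CDCA8siRNA, Huh7 with NCsiRNA and Huh7 with CDCA8siRNA. All 4 received siRNA at the same dose. Per the study, CDCA8siRNA was a single sequence, CDCA8-1siRNA, in both lines. Effects of that sequence on other transcripts and effects of the loss of CDCA8 cannot be told apart here. There was 1 library for each group, so no spread between replicate cultures could be measured, and each line is a culture of a tumor line and not a sample of tumors.

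Aminoacyl-tRNA synthetases join each amino acid to its tRNA, the step that feeds ribosomes with charged tRNA. The cytosol and the mitochondria keep separate enzymes for most amino acids, all encoded in the nucleus, while GARS and KARS each give both the cytosolic and the mitochondrial enzyme. Several cytosolic enzymes sit in a multisynthetase complex held by AIMP1, AIMP2 and EEF1E1. Uncharged tRNA activates the kinase GCN2, which raises translation of the transcription factor ATF4, and ATF4 in turn induces many cytosolic synthetase genes through C/EBP-ATF response elements in their promoters. Hepatocytes make large amounts of secreted protein and so use much charged tRNA.

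The promoter sequences are shown first because they divide the cytosolic genes into those with and those without such an element. RefSeq windows on GRCh38.p14, from 250 bases before to 50 bases after a transcription start, were matched by identifier for 32 of the 38 genes. No window was found for DARS, LARS, VARS, YARS, AARS2 and VARS2. The element was searched on both strands as TGATGNAA, where N is any base, and 4.46% of the 27305 genes with a window held it. It was present in 7 of the 16 cytosolic genes with a window (43.8%) and in 1 of the 14 mitochondrial genes with a window (7.14%). All 7 cytosolic matches fell among the 10 genes with a window on a list of known ATF4 targets, and none fell among the other 6 cytosolic genes. That list rests in part on such elements, so the split is a description and not independent evidence. The 30 bases around each match are given on the strand of the gene, 5′ to 3′, with the element in capitals.
AARS, chr16:70289675-70289704, minus strand: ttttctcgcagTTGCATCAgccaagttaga
CARS, chr11:3057407-3057436, minus strand: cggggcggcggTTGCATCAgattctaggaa
GARS, chr7:30594834-30594863, plus strand: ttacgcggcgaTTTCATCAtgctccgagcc
IARS, chr9:92293692-92293721, minus strand: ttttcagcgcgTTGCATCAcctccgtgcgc
MARS, chr12:57488053-57488082, plus strand: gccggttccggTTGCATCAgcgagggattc
NARS, chr18:57621804-57621833, minus strand: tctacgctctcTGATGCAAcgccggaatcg
TARS, chr5:33440956-33440985, plus strand: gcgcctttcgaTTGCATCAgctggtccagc
YARS2, chr12:32756076-32756105, minus strand: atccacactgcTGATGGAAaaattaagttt

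In AARS, CARS, IARS, MARS and TARS the same 8 letters TTGCATCA were read on the strand of the gene, and NARS carried their reverse complement. The element began within 33 bases of the start in CARS, GARS, IARS, MARS, NARS and TARS, and it lay further upstream in AARS and YARS2. A search for the nuclear respiratory factor 1 motif GCGCATGCG, which 2.34% of genes held, matched MARS2 among the 32 genes. A search for the cAMP response element TGACGTCA, held by 2.25% of genes, matched AIMP2. No member held more than 1 of the 3 motifs.

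A further 3 stretches are shown for genes that the results below turn on. Each runs to the transcription start in 5′ to 3′ order on the strand of the named gene, with start bases in capitals. HARS and HARS2 start head to head 85 bases apart, and KARS starts 108 bases from TERF2IP, a telomere protein gene on the other strand, so that the capital at the left end of each of these stretches is the start of the neighbor. For WARS2 the 120 bases before the start are given. No match to the 3 motifs lay in the windows of these genes, which says only that those letters were not there.
HARS2, chr5:140691370-140691455, plus strand: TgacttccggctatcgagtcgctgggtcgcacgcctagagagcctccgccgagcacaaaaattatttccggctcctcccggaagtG
KARS, chr16:75647665-75647773, minus strand: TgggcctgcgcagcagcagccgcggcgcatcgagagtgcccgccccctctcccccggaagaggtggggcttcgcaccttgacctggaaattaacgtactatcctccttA
WARS2, chr1:119140672-119140792, minus strand: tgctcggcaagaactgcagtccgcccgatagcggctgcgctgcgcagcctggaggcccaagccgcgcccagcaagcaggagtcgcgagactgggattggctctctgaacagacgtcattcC

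The libraries held between 12197606 and 13384836 reads, as deduced from the deposited values. CDCA8 itself read 24.1 RPKM with NCsiRNA against 5.86 RPKM with CDCA8siRNA in Huh1, and 51.5 against 7.36 RPKM in Huh7 (log2 difference -2.26, SE 0.16, adjusted p = 0.000542), in the direction of the labels. RPKM divides the reads of a transcript by its length and by the size of the library, so levels of different genes can be compared per length. The hepatocyte markers ALB and HNF4A were present in all 4 libraries, at 721 RPKM or more and 38.8 RPKM or more. The leukocyte gene PTPRC reached at most 0.417 RPKM and the endothelial gene VWF at most 0.00923 RPKM. CD68, a further marker of other cell types, was present, at 23.3 and 16.5 RPKM in Huh1 and 3.71 and 3.73 RPKM in Huh7. It made up most of the summed level of that list in Huh1 given below. Of 8 hepatocyte markers, 6 were lower with CDCA8siRNA in both lines, and the summed level of the 8 was 4540 RPKM against 3502 RPKM in Huh1, and 2680 against 1918 RPKM in Huh7. The summed level of the 5 markers of other cell types found in the files was 23.5 against 16.7 RPKM in Huh1, and 112 against 131 RPKM in Huh7, where COL1A1 made up most of it. The part of either list in the results below was not tested.

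Cytosolic synthetase transcripts had a higher median level than mitochondrial ones, and the ranges of the classes overlapped. The median over the 20 cytosolic genes was 69.2 RPKM in Huh1 with NCsiRNA, 70.0 RPKM in Huh1 with CDCA8siRNA, 70.7 RPKM in Huh7 with NCsiRNA and 68.0 RPKM in Huh7 with CDCA8siRNA. The median over the 16 mitochondrial genes was 10.7, 10.5, 10.9 and 11.2 RPKM in the same order. The cytosolic median was thus 6.49, 6.67, 6.52 and 6.06 times the mitochondrial one, and this ordering of the medians held in every library. Between 10 and 11 of the cytosolic genes lay below the highest mitochondrial gene, IARS2, in each library. Together the cytosolic genes took between 0.314% and 0.370% of the summed RPKM of a library, and the mitochondrial genes between 0.0526% and 0.0618%.

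Among cytosolic genes the highest mean level belonged to KARS, the lysyl enzyme, at 139 RPKM, followed by AARS, the alanyl enzyme, at 131 RPKM and GARS, the glycyl enzyme, at 125 RPKM. GARS was the steadiest of these, at 120 and 121 RPKM in Huh1 and 127 and 131 RPKM in Huh7. The order of KARS and AARS depended on the line, since AARS stood at 91.5 and 80.1 RPKM in Huh1 and at 176 and 177 RPKM in Huh7. The lowest means belonged to CARS, the cysteinyl enzyme, at 27.2 RPKM, WARS, the tryptophanyl enzyme, at 31.0 RPKM, and VARS, the valyl enzyme, at 42.3 RPKM. VARS gave 35.9 and 38.4 RPKM in Huh1 and 45.9 and 48.9 RPKM in Huh7.

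Among the mitochondrial genes, IARS2, the mitochondrial isoleucyl enzyme, had 69.6 and 75.4 RPKM in Huh1 and 65.8 and 65.2 RPKM in Huh7, a level within the cytosolic range. RARS2, the arginyl enzyme, followed with 28.2 and 26.4 RPKM in Huh1 and 39.0 and 37.3 RPKM in Huh7, and HARS2, the histidyl enzyme, with 24.4, 23.0, 20.9 and 19.1 RPKM. These 3 were ordered alike in every library. The lowest were PARS2, the prolyl enzyme, with a mean of 3.56 RPKM, FARS2, the phenylalanyl enzyme, with 4.76 RPKM, and WARS2, the tryptophanyl enzyme, with 5.17 RPKM. FARS2 gave 5.36 and 5.97 RPKM in Huh1 and 3.70 and 4.03 RPKM in Huh7. The order of these lowest genes changed from library to library, and they rested on between 75 and 283 reads each.

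**Figure D1:**
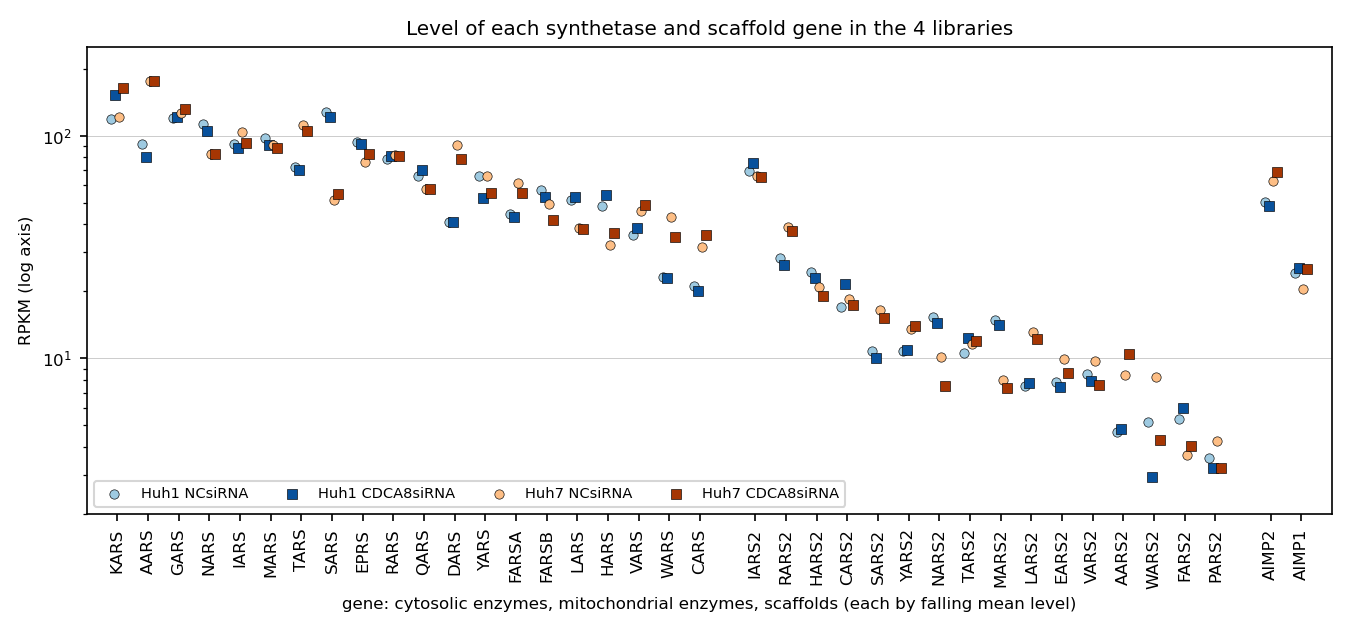
Level of the 38 genes in RPKM on a log axis, with 1 point for each library, circles for NCsiRNA and squares for CDCA8siRNA. Cytosolic genes lie between 19.97 and 177 RPKM, while mitochondrial genes other than IARS2 lie between 2.94 and 39.0 RPKM.

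The question of the CDCA8 knockdown is which of these genes changed with it in both lines. KARS rose and WARS2 fell, and these were the only members called. KARS stood at 119 RPKM with NCsiRNA and 152 RPKM with CDCA8siRNA in Huh1, and at 121 and 163 RPKM in Huh7. Both knockdown libraries lay above both controls. The share of all genes tested that separated in this way, up or down, was not counted, and the calls rest on these same values. WARS2 stood at 5.17 and 2.94 RPKM in Huh1 and at 8.24 and 4.31 RPKM in Huh7, so that each knockdown library held 57.0% and 52.3% of its control, and both lay below both controls. The reads behind WARS2 numbered 194 and 109 in Huh1 and 283 and 149 in Huh7. In bulk RNA, fewer cells of a type and less RNA per cell cannot be told apart.

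Calls came from limma fitted to log2(RPKM + 1) of all 10357 genes that passed the filter, over 4 libraries with the cell line as covariate, at an adjusted p-value under 0.05. With 1 residual degree of freedom the fit asks whether both lines changed alike. Limma draws the variance of each gene towards that of genes at a similar level, which counted as 8.29 further degrees of freedom. The SE and p-values thus rest mostly on the spread of other genes. KARS was higher by 0.39 on the log2 scale (SE 0.079, adjusted p = 0.0173), and WARS2 fell by 0.72 (SE 0.12, adjusted p = 0.00922). Of all genes tested, 6.03% were called higher and 4.21% lower, and 1 of 38 members was called in each direction, which is 5.26% of members in both directions together beside 10.2% of genes. At an unadjusted p-value under 0.05 there were 3 members (7.89%) and 2694 of all genes (26.0%). The call of KARS was lost without the mean-variance trend (adjusted p = 0.0619), and both calls were lost with no filter on low values (adjusted p = 0.445 for each) and without the line as covariate (adjusted p = 1.00 for each). Under the other alternatives KARS had adjusted p-values from 0.00160 to 0.0183.

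KARS and its head-to-head neighbor TERF2IP, which was looked up after the values of KARS had been seen, were both higher. TERF2IP read 19.2 and 24.2 RPKM in Huh1, and 32.4 and 43.3 RPKM in Huh7, a log2 difference of 0.36 (SE 0.095, adjusted p = 0.0431). No exon of KARS overlapped an annotated exon on the other strand, whereas 3.34% of the WARS2 transcript did. The deposited tables hold 1 transcript for a gene, so the cytosolic and the mitochondrial form of KARS were not separated.

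The remaining cytosolic genes changed little. No member changed 2-fold in either line, where 0.444% of all genes did so in Huh1 and 1.46% in Huh7. YARS, the tyrosyl enzyme, came closest to a call among the rest, at 66.1 and 52.4 RPKM in Huh1 and 65.7 and 55.6 RPKM in Huh7. Both knockdown libraries lay below both controls, a separation whose share over all genes tested was not counted. The log2 difference was -0.28 (SE 0.087, adjusted p = 0.0734). It passed the threshold under upper quartile scaling only (adjusted p = 0.0398). Exons of S100PBP on the other strand cover 12.2% of the YARS transcript. The strand setting of the counting is not given, so reads of the pair may not have been told apart there.

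HARS, the histidyl enzyme, read 48.2 and 54.0 RPKM in Huh1 and 32.3 and 36.7 RPKM in Huh7, a log2 difference of 0.17 (adjusted p = 0.268). FARSB, the beta subunit of the phenylalanyl enzyme, read 57.1 and 53.1 RPKM in Huh1 and 49.3 and 41.8 RPKM in Huh7, a log2 difference of -0.17 (adjusted p = 0.280). WARS read 23.2 and 23.0 RPKM in Huh1 and 43.0 and 34.9 RPKM in Huh7, with log2 fold changes of -0.013 in Huh1 and -0.29 in Huh7 (overall adjusted p = 0.396), and the difference between the lines was not tested. The other 15 cytosolic genes had log2 differences between -0.11 and 0.091 over both lines. Taken within a line, the median log2 fold change of the cytosolic genes was -0.040 in Huh1 and -0.0024 in Huh7, beside 0.021 and 0.026 for all genes tested.

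Most mitochondrial genes read below their control in Huh7. Of the 16, 12 were below their control in Huh7, beside 46.3% of all genes tested, 9 were below it in Huh1 (56.2%, beside 45.2% of all genes), and 9 were below it in both lines (56.2%, beside 30.5%). Their median log2 fold change was -0.071 in Huh1 and -0.094 in Huh7. Only WARS2 passed the test among them. The share of all genes tested that lay more than 2 SD of read sampling from their control was not counted. Of the mitochondrial genes below their control, 1 (WARS2) lay there by more than 2 SD of read sampling in Huh1 and 5 did in Huh7. Above their control by more than that lay 3 genes (CARS2, IARS2 and TARS2) in Huh1 and 1 (AARS2) in Huh7. With quantile normalization 11 genes were below their control in Huh1 and 11 in Huh7, and with upper quartile scaling 10 and 12, with 9 below in both lines under each.

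After WARS2 the largest differences were those of NARS2, the asparaginyl enzyme, which read 15.4 and 14.5 RPKM in Huh1 and 10.2 and 7.54 RPKM in Huh7 (log2 difference -0.23, adjusted p = 0.241). PARS2 read 3.57 and 3.21 RPKM in Huh1 and 4.26 and 3.21 RPKM in Huh7 (log2 difference -0.22, adjusted p = 0.331). VARS2, the valyl enzyme, read 8.48 and 7.88 RPKM in Huh1 and 9.73 and 7.62 RPKM in Huh7 (log2 difference -0.21, adjusted p = 0.301). In these 3 genes the value in Huh7 lay further below its control than that in Huh1, a difference that was not tested. AARS2, the alanyl enzyme, went the other way, with 4.66 and 4.80 RPKM in Huh1 and 8.40 and 10.5 RPKM in Huh7 (log2 difference 0.16, adjusted p = 0.447). None of these 4 was called.

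The scaffold genes were not called. AIMP1 read 24.3 and 25.6 RPKM in Huh1 and 20.5 and 25.2 RPKM in Huh7 (log2 difference 0.18, adjusted p = 0.311). AIMP2 read 50.6 and 48.2 RPKM in Huh1 and 62.5 and 68.7 RPKM in Huh7 (log2 difference 0.032, adjusted p = 0.862). Over the 11 genes of the multisynthetase complex, KARS was the only call, and the median log2 fold change was 0.0013 in Huh1 and -0.0064 in Huh7. A further scaffold of the complex, EEF1E1, read 47.1 and 41.0 RPKM in Huh1 and 42.6 and 29.1 RPKM in Huh7 (log2 difference -0.37, adjusted p = 0.0597). Exons of EIF2AK1 on the other strand cover 43.4% of the AIMP2 transcript and exons of TBCK 14.1% of that of AIMP1.

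**Figure D2:**
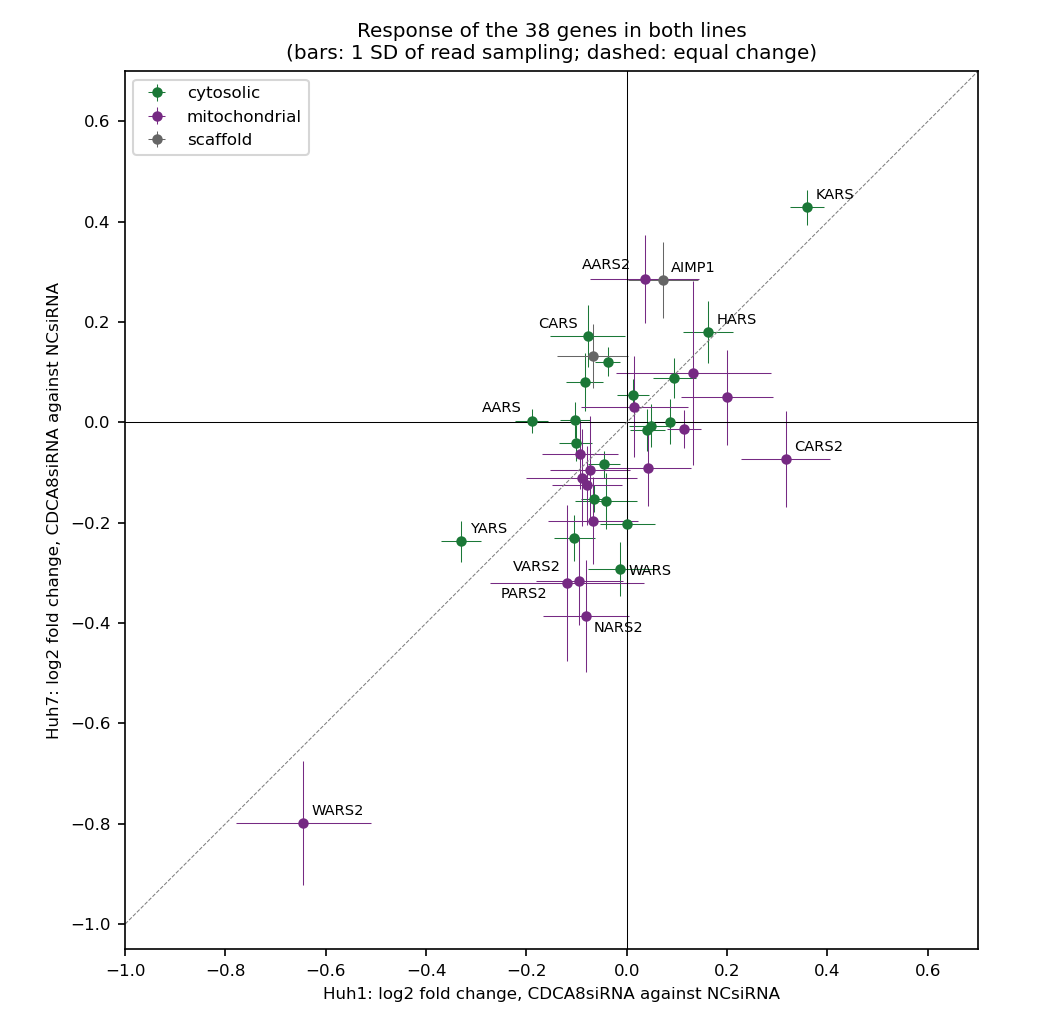
Log2 fold change of CDCA8siRNA against NCsiRNA for the 38 genes in Huh1 (horizontal) and Huh7 (vertical), on the log2(RPKM + 1) scale, with bars of 1 SD of read sampling. KARS (0.36 and 0.43) and WARS2 (-0.65 and -0.80) are the called genes. In Huh1 the mitochondrial gene CARS2 (0.32) lies close to KARS.

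Members had smaller fold changes by median than genes at large, which were not matched to them in level or read count. The median absolute log2 fold change was 0.083 in Huh1 and 0.12 in Huh7 for the 38 genes, and 0.13 and 0.18 for all genes tested. The log2 fold change had the same sign in both lines in 26 of 38 members (68.4%), beside 69.4% of all genes tested. The SD of read sampling ranged from 0.023 to 0.18, with a median of 0.040 for cytosolic and 0.091 for mitochondrial genes, so a given fold change was read more finely in the cytosolic genes. In 7 members the change exceeded 2 SD of read sampling on the same side in both lines, namely FARSB, HARS, IARS, KARS, VARS, YARS and WARS2. The share of all genes tested that did so was not counted, and small changes passed too, such as -0.065 for IARS in Huh1. This SD covers counting error only and holds no variation between cultures.

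By enzyme class, 1 of 19 class I genes (WARS2) and 1 of 17 class II genes (KARS) were called. These classes differ in the fold of the catalytic domain and were set down from general knowledge.

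The cytosolic and mitochondrial enzymes of an amino acid were set against each other in 17 pairs. EPRS was paired with both EARS2 and PARS2, and FARS2 with both FARSA and FARSB, so the pairs are not all separate. The cytosolic gene had the higher level in all 4 libraries in 16 pairs. The exception was CARS against CARS2, where the ratio of RPKM was 1.24 with NCsiRNA and 0.928 with CDCA8siRNA in Huh1 and 1.73 and 2.06 in Huh7. Over pairs and libraries the ratio ran from that 0.928 to 28.5 for EPRS, the fused glutamyl and prolyl enzyme, against PARS2.

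With the knockdown, the ratio moved to the same side in both lines in 13 pairs, up in 7 and down in 6. The share of other gene pairs whose ratio did so was not counted, so these counts cannot be read as particular to synthetases. The largest move was that of WARS over WARS2, which was 4.49 with NCsiRNA and 7.81 with CDCA8siRNA in Huh1, and 5.22 and 8.09 in Huh7. Here WARS2 moved more than WARS in both lines. For HARS over HARS2 the values were 1.98 and 2.35 in Huh1, and 1.55 and 1.93 in Huh7. For VARS over VARS2 they were 4.23 and 4.87 in Huh1, and 4.72 and 6.42 in Huh7. AARS over AARS2 moved down, with 19.6 and 16.7 in Huh1, and 21.0 and 16.9 in Huh7. These ratios were not tested.

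In 7 pairs the enzymes of a pair had log2 fold changes of opposite sign in both lines. The share of other gene pairs with such signs was not counted, so this count cannot be read as particular to synthetases. It was 8 with quantile normalization and 7 with upper quartile scaling, and YARS and YARS2 were not such a pair under either. In the pairs HARS and HARS2, and VARS and VARS2, the cytosolic gene was above its control and the mitochondrial one below it in both. In YARS and YARS2 the cytosolic gene was below and the mitochondrial one, at 10.8 and 10.9 RPKM in Huh1 and 13.6 and 13.9 RPKM in Huh7, above by less than 1 SD of read sampling in both lines. TARS, the threonyl enzyme, read 72.3 and 70.0 RPKM in Huh1 and 111 and 105 RPKM in Huh7, while TARS2 read 10.6 and 12.3 RPKM and then 11.5 and 12.0 RPKM. FARSA, the alpha subunit of the phenylalanyl enzyme, read 44.5 and 43.2 RPKM in Huh1 and 61.6 and 55.1 RPKM in Huh7, and both it and FARSB were below their controls where FARS2 was above. FARS2 changed by less than 1 SD of read sampling in both lines, as did FARSA in Huh1 and TARS2 and CARS2 in Huh7. FARS2 enters the count of pairs with both FARSA and FARSB. CARS read 21.1 and 19.97 RPKM in Huh1 and 31.7 and 35.9 RPKM in Huh7, and CARS2 read 17.1 and 21.5 RPKM and then 18.4 and 17.4 RPKM, so these exchanged direction between lines. None of the 13 genes in these pairs was called.

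HARS and HARS2 share the stretch between their starts given above, and 26.9% of the HARS transcript and 13.2% of the HARS2 transcript overlap exons on the other strand, in part each other's. These are shares of transcript length. If strand was not used in counting, reads in the overlap could not be told apart. How many reads the ratio of the pair gains or loses there was not measured. Exons of MRPS12 cover 17.0% of the SARS2 transcript in the same way.

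**Figure D3:**
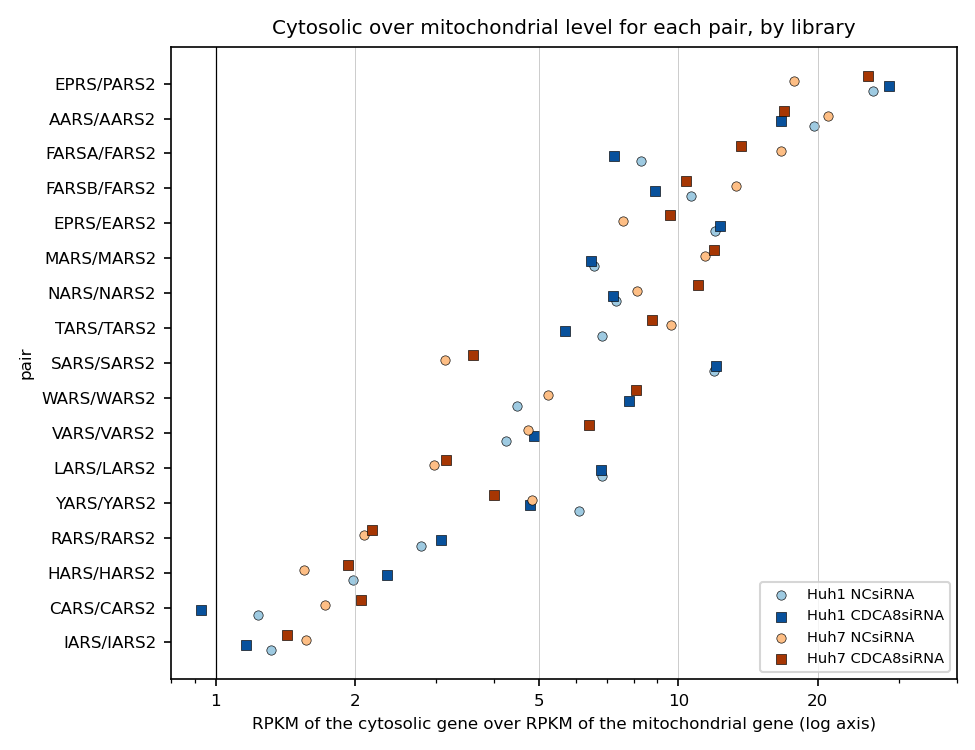
Ratio of the RPKM of the cytosolic gene to that of the mitochondrial gene for 17 pairs, on a log axis, with 1 point for each library. All points but the Huh1 CDCA8siRNA point of CARS/CARS2 (0.928) lie above 1, and the SARS/SARS2 ratio is 11.9 and 12.1 in Huh1 against 3.13 and 3.59 in Huh7.

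The genes that ATF4 is known to induce were then set apart, since amino acid shortage acts on the cytosolic enzymes through it. None of the 12 cytosolic synthetases on the list of ATF4 targets was called in either direction, and 1 of the other 8 (KARS) was called higher, where 10.2% of all genes tested were called. At an unadjusted p-value under 0.05 the 12 genes held 1 (8.33%, beside 26.0% of all genes tested), YARS, which lay below its controls. Their median log2 fold change was -0.071 in Huh1, with 10 of 12 below the control (83.3%, beside 45.2% of all genes tested), and -0.0057 in Huh7, with 6 of 12 below (beside 46.3%). These counts were 11 and 8 with upper quartile scaling and 10 and 5 with quantile normalization. For the other 8 cytosolic genes it was 0.067 and -0.0024. The 7 genes with the element shown above included AARS, with log2 fold changes of -0.19 in Huh1 and 0.0032 in Huh7, and CARS, with -0.078 and 0.17. GARS read 0.013 in Huh1, within 1 SD of read sampling and below 0 with upper quartile scaling, and 0.054 in Huh7. Under upper quartile scaling, 1 of the 12 genes (YARS) was called lower.

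ATF4 itself read 134 and 121 RPKM in Huh1 and 208 and 210 RPKM in Huh7, and was not called (adjusted p = 0.652). Among 20 further genes of ATF4 and the amino acid response, 1 was called higher and 3 lower, beside the 6.03% and 4.21% of all genes tested, and 7 had an unadjusted p-value under 0.05 (35.0%, beside 26.0%). TRIB3, a pseudokinase induced by ATF4, rose, with 27.1 and 40.9 RPKM in Huh1, and 25.2 and 36.3 RPKM in Huh7 (log2 difference 0.54, SE 0.093, adjusted p = 0.00962). CHAC1, which breaks down glutathione, fell, with 6.15 and 3.16 RPKM in Huh1, and 7.30 and 5.43 RPKM in Huh7 (log2 difference -0.58, SE 0.14, adjusted p = 0.0304). DDIT4, an inhibitor of mTORC1 signaling, fell by 0.48 on the log2 scale (adjusted p = 0.0184), and SHMT2, the mitochondrial serine hydroxymethyltransferase, by 0.31 (adjusted p = 0.0455). ASNS, asparagine synthetase, read 45.1 and 40.6 RPKM in Huh1 and 43.7 and 41.6 RPKM in Huh7 and was not called (adjusted p = 0.494).

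The list of other tRNA charging genes, which also holds genes with other roles, had 18 genes in the files. Of these, 1 was called (5.56%, beside 10.2% of all genes tested) and 5 had an unadjusted limma p-value under 0.05 (27.8%, beside 26.0%). The called gene, LARP4, gives an RNA binding protein of the poly(A) tail and not a charging enzyme. LARP4 fell, with 34.1 and 26.3 RPKM in Huh1, and 39.7 and 27.2 RPKM in Huh7 (log2 difference -0.45, SE 0.096, adjusted p = 0.0221). The kinase GCN2, listed as EIF2AK4, read 14.2 and 16.3 RPKM in Huh1 and 15.8 and 19.0 RPKM in Huh7 (log2 difference 0.22, adjusted p = 0.211).

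**Figure D4:**
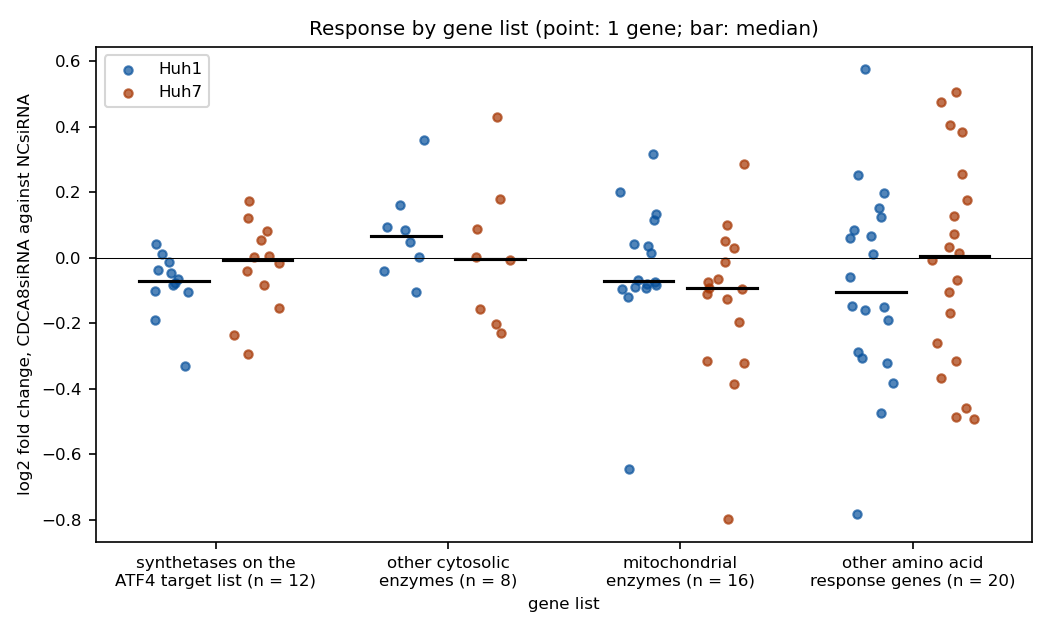
Log2 fold change of CDCA8siRNA against NCsiRNA by gene list, with 1 point for each gene, blue for Huh1 and brown for Huh7, and a bar at the median. The 12 synthetases on the ATF4 target list lie between -0.33 and 0.17, and the 20 other amino acid response genes between -0.78 and 0.58.

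Differences between the cell lines were larger than those between the siRNAs. Over the 38 genes the median absolute log2 difference was 0.37 between the lines and 0.0995 between the siRNAs, and the line difference was the larger in 30 genes. This was not particular to the members, since 67.7% of all genes tested were called between the lines and 10.2% between the siRNAs. In Huh7, 14 members were called higher than in Huh1 and 10 lower, from the coefficient of the line in the same limma fit. Of all genes tested 39.1% were called higher and 28.7% lower, so the members' 63.2% called was near the 67.7% of all genes. The libraries of a line differed in siRNA and were not replicate cultures. The spread of a gene is thus that of 1 culture of each line treated with either siRNA. As for the siRNA, the SE and p-values rest mostly on the spread of other genes. In Huh7 the COL1A1 level was 107 and 125 RPKM, against 0.115 and 0.122 RPKM in Huh1, and AFP was likewise higher there, and the part of such differences was not tested.

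Among cytosolic genes 7 were higher and 7 lower in Huh7. SARS, the seryl enzyme, had the largest difference, with 128 and 121 RPKM in Huh1 and 51.5 and 54.5 RPKM in Huh7 (log2 difference -1.22, SE 0.087, adjusted p = 2.02e-06). It was the only member at least 2-fold apart to the same side with both siRNAs, which 16.4% of all genes tested were. AARS differed the other way, by 1.04 (SE 0.085, adjusted p = 4.77e-06), and DARS, the aspartyl enzyme, by 1.02 (SE 0.092, adjusted p = 9.21e-06), with 41.1 and 41.1 RPKM in Huh1 and 90.4 and 78.4 RPKM in Huh7. WARS was higher by 0.72 (SE 0.10, adjusted p = 0.000193) and CARS by 0.69 (SE 0.10, adjusted p = 0.000248). Of the 12 ATF4 target synthetases, 4 were called higher and 4 lower in Huh7 (66.7%, beside 67.7% of all genes tested). The ATF4 transcript was higher in Huh7 (log2 difference 0.71, SE 0.081, adjusted p = 4.31e-05).

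Among mitochondrial genes 6 were higher and 3 lower in Huh7. AARS2 was higher by 0.86 (SE 0.12, adjusted p = 0.000167), the same side as AARS. LARS2, the leucyl enzyme, was higher by 0.65 (SE 0.11, adjusted p = 0.000502), with 7.54 and 7.79 RPKM in Huh1 and 13.1 and 12.2 RPKM in Huh7. SARS2 was higher by 0.56 (SE 0.10, adjusted p = 0.000919), with 10.7 and 10.03 RPKM in Huh1 and 16.4 and 15.2 RPKM in Huh7, against the direction of SARS. MARS2, the methionyl enzyme, was lower, with 14.9 and 14.1 RPKM in Huh1 and 7.97 and 7.39 RPKM in Huh7 (log2 difference -0.84, SE 0.11, adjusted p = 8.24e-05). NARS2 was also lower in Huh7 (log2 difference -0.71, SE 0.12, adjusted p = 0.000447). WARS2 was higher in Huh7 by 0.51 (SE 0.12, adjusted p = 0.00464), so the gene that fell with the knockdown also differed between the lines. The opposite line differences of SARS and SARS2 gave the pair ratio of 11.9 and 12.1 in Huh1 and 3.13 and 3.59 in Huh7. For AIMP2 the level was higher in Huh7 (log2 difference 0.40, adjusted p = 0.00354).

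KARS did not pass the test between the lines (log2 difference 0.062, SE 0.079, adjusted p = 0.506), and its sign turned under upper quartile scaling. No call was reached either for GARS, IARS, MARS, RARS and YARS among the cytosolic genes, nor for CARS2, EARS2, HARS2, IARS2, PARS2, TARS2 and VARS2 among the mitochondrial ones. With no filter on low values, 7 members were called higher and 4 lower, and CARS, WARS, AARS2, NARS2, WARS2 and AIMP2 were among those that lost their call. Without the siRNA as covariate WARS2 lost it too (adjusted p = 0.265). The median log2 difference of all genes tested was 0.097 as deposited and -0.027 after quantile normalization, and member differences near that size depend on it.

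**Figure D5:**
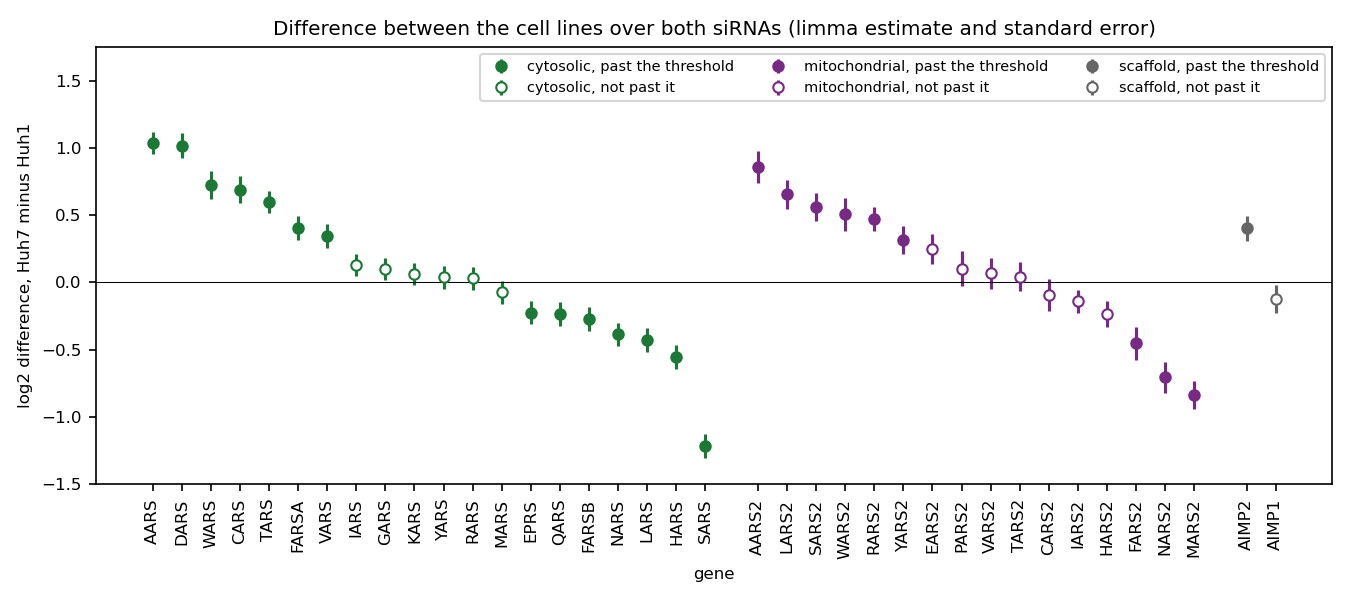
Log2 difference between Huh7 and Huh1 over both siRNAs for the 38 genes, as the limma estimate with its SE, filled where the adjusted p-value is under 0.05. Cytosolic genes run from 1.04 for AARS to -1.22 for SARS, and mitochondrial genes from 0.86 for AARS2 to -0.84 for MARS2.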

How the data were processed

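RNA of Huh1 and Huh7 cells with NCsiRNA or CDCA8siRNA was sequenced from Illumina TruSeq libraries, 1 for each group. The authors deposited RPKM values for 18398 RefSeq transcripts without a stated unit. The unit was deduced from the values. Per the labels, CASAVA 1.8.2 and TopHat2 2.0.9 were run against hg19; the counting tool and its strand setting are not given in the sources used here. Dose and time came from the study's methods.

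Genes that reached 1 RPKM in either library of both lines were tested with limma 3.58.1 in R 4.3.3 on log2(RPKM + 1), with a mean-variance trend, the other factor as covariate and Benjamini-Hochberg adjustment over all 10357 genes at 0.05. Fold changes are therefore understated for low genes. Fold changes within a line, with 1 library against 1, were not tested. Their sampling SD was computed from RPKM, GENCODE 29 transcript lengths (17768 matched rows) and the depth of the library. After multiplication by length, 29.6% to 33.5% of low values fell within 0.02 reads of a whole number, so no count test was run. Promoters came from RefSeq on GRCh38.p14. The limma fit was tried on simulated data with 200 changed genes, each changed alike in both lines, and the deduction of depth on simulated reads. Changes of low genes and responses that differed between the lines were not simulated, nor were pairs and promoters. Python 3.11.15, numpy 2.4.6, pandas 2.3.3 and matplotlib 3.10.9 were used.

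The members, the gene lists (cytosolic and mitochondrial enzymes, scaffolds, multisynthetase complex, enzyme classes, ATF4 targets, further response genes and tRNA charging genes) and the tests were chosen with earlier results of these data known. Given in full are called members and, in each class of enzymes, the 5 largest differences by siRNA and by line, the 3 highest and 3 lowest levels, the scaffolds and the pairs that moved oppositely in both lines. Other pseudocounts, filters, scalings and models were tried as alternatives.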

Additional observations from a re-analysis of the deposited data

Results flagged for a closer look

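In 9 members the log2 fold change of CDCA8siRNA had opposite signs in Huh1 and Huh7 and differed between them by more than 2 SD of read sampling. With 1 library for each group, the difference between the lines was not tested for any of them. The log2 fold change in Huh7 minus that in Huh1 was 0.19 for AARS, 0.25 for CARS, 0.16 for EPRS, 0.11 for NARS, 0.16 for SARS and 0.20 for AIMP2, with the value in Huh1 below 0 and that in Huh7 above it. It was -0.20 for DARS, -0.39 for CARS2 and -0.13 for IARS2, where the signs were the other way round. In 4 of the 9 the value in 1 line was near 0, within 1 SD of read sampling, and changed sign under another scaling. These were AARS in Huh7 (0.0032, and -0.012 with upper quartile scaling), NARS in Huh7 (0.0045, and -0.011 with upper quartile scaling), DARS in Huh1 (0.0013, and -0.022 with quantile normalization and -0.017 with upper quartile scaling) and IARS2 in Huh7 (-0.013, and 0.010 with quantile normalization). The signs stayed opposite in 7 of the 9 with quantile normalization and in 6 with upper quartile scaling. Opposite signs occurred in 12 of the 38 members. The sign was the same in both lines in 68.4% of members, beside 69.4% of all genes tested. The share of all genes with opposite signs and a difference over 2 SD was not counted. The cysteinyl enzymes CARS and CARS2 were both among the 9 and in opposite directions. Of the 6 genes with a value below 0 in Huh1 only, AARS, CARS, EPRS, NARS and SARS are on the list of ATF4 targets. That list holds 12 of the 20 cytosolic genes, and AARS and NARS lost the opposite sign with upper quartile scaling. A link of these signs to ATF4 was not tested.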

How the results depend on the processing

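No pairing of replicate cultures was possible because each group has 1 library. The pairing of siRNAs within a line is already made by the line covariate. With 1 library for each group, leaving out a library leaves no residual degree of freedom and no test. The siRNA calls rested on the filter and on the line covariate. With no filter on low values, and without the covariate, 0 genes were called higher and 0 lower, with 2050 and 89 genes at an unadjusted limma p-value under 0.05, so members, cytosolic, other cytosolic and mitochondrial enzymes had 0 calls. Without the trend 267 genes were called lower and 0 members higher (also 0 cytosolic and 0 other cytosolic enzymes), and with quantile normalization 718 genes were called lower. With upper quartile scaling 2 members were called lower, 1 cytosolic enzyme and 1 ATF4 target synthetase (YARS) among them. Between the lines, no filter left 7 members higher and 4 lower.

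Signs turned in 23 values of single genes, none of them called, of which 11 were limma estimates and 12 fold changes within a line. Among the estimates for the siRNA these were SARS (0.015) and YARS2 (-0.0094) with quantile normalization and LARS (-0.0035) with upper quartile scaling. For the line they were PARS2 (-0.14), TARS2 (-0.073) and VARS2 (-0.076) with quantile normalization, and KARS (-0.035), RARS (-0.067), YARS (-0.059), TARS2 (-0.049) and VARS2 (-0.020) with upper quartile scaling. The 12 within a line belonged to AARS, DARS, GARS, LARS, NARS, QARS, RARS, AARS2, IARS2 and YARS2, and after turning they were at most 0.022 in size. Over single genes and settings, 852 values kept their side of the threshold or moved within sampling error, these 12 among them, 27 lost a call, 4 gained 1, 6 moved further and 11 estimates turned. Where a value changed, the cause was not tested. WARS2 rested on between 109 and 283 reads, which gave its log2 fold changes a sampling SD of 0.13 in Huh1 and 0.12 in Huh7.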
